A study of Arabidopsis thaliana with 9 samples.

Results

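The genes examined were 10 central components of the Arabidopsis thaliana circadian clock, taken by locus ID from a table of 27814 loci: the pseudo-response regulator (PRR) genes PRR9 (AT2G46790), PRR7 (AT5G02810), PRR5 (AT5G24470), PRR3 (AT5G60100) and TOC1 (AT5G61380), the evening gene GI (AT1G22770), the evening complex genes ELF3 (AT2G25930), ELF4 (AT2G40080) and LUX (AT3G46640, PCL1 in the annotation), and BOA (AT5G59570), a close relative of LUX. All 10 were present in the table. Of these, 5 lie on chromosome 5 in TAIR10.1: PRR7 (chr5:637681-642030), PRR5 (chr5:8356204-8358546) and, on the distal part of the same chromosome, BOA (chr5:24003888-24007844), PRR3 (chr5:24197971-24201415) and TOC1 (chr5:24674963-24678550). PRR9 (chr2:19232607-19235179), ELF3 (chr2:11058944-11063324) and ELF4 (chr2:16734294-16734953) lie on chromosome 2, GI (chr1:8061751-8067790) on chromosome 1 and LUX (chr3:17183042-17186959) on chromosome 3. Raw counts per gene were deposited for 9 RNA-seq libraries of whole seedlings, 3 in each of 3 groups. Col-0 was the wild type, AtCXE15-OE overexpresses a carboxylesterase gene whose product breaks down strigolactones, and atd14-1 carries a mutation in D14, which encodes the receptor for these hormones. The sources used here give neither the promoter that drives the transgene nor the number of transgenic lines. All groups were untreated and grown on diluted Murashige and Skoog medium at 22 °C with 16 h of light and 8 h of dark. Age was labelled as 8 days in one field and 10 days in another. No source used here gives the hour of harvest, and for clock genes a difference in harvest time between groups cannot be told apart from genotype. Nor do the labels say whether replicates were grown separately. The p-values therefore measure only the spread among libraries, part of which may be technical.

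The plant clock is a set of transcriptional repressors expressed one after another through the day. At dawn the MYB factors CCA1 and LHY repress evening genes by binding a promoter sequence called the evening element. PRR9, PRR7, PRR5 and TOC1 then repress CCA1 and LHY in a wave that runs from morning to evening, and the evening complex of ELF3, ELF4 and LUX represses PRR9 and growth genes at night. GI and PRR3 act on protein stability, GI by stabilising the F-box protein ZTL and PRR3 by shielding TOC1 from it.

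The promoters of the genes are shown first because they separate the 10 genes by the evening element, AAAATATCT. The 1000 bases upstream of each annotated gene start were read on both strands from the TAIR10.1 assembly. The evening element was found in 6 of the 10 genes (PRR5, TOC1, GI, ELF4, LUX and BOA), against 7.24% of 27443 protein-coding genes. No copy was found in that window for PRR9, PRR7, PRR3 and ELF3. PRR5 and GI held 3 copies each and the other 4 genes 1 each. The copy nearest the gene start is given below with 10 bases on either side, 5′ to 3′ on the strand of the gene. Capitals mark the element, which reads AGATATTTT where it lies on the opposite strand.
PRR5: gattttttctAGATATTTTcttttctcca
TOC1: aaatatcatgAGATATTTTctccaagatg
GI: agctcccctcAAAATATCTgtggacatat
ELF4: atactacaaaAAAATATCTtgcggattat
LUX: tagaagatctAAAATATCTagctaactcg
BOA: tgcgggtaaaAGATATTTTagattatcta

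These windows lie at chr5:8358715-8358743 (PRR5, minus strand), chr5:24674802-24674830 (TOC1, plus), chr1:8061150-8061178 (GI, plus), chr2:16735471-16735499 (ELF4, minus), chr3:17182979-17183007 (LUX, plus) and chr5:24003835-24003863 (BOA, plus). The element was closest to the gene start in BOA, where it covered bases 43 to 35 upstream, and in LUX, where it covered bases 53 to 45. In the deposited table the PRR5 locus begins 338 bases before the annotated start, so that 2 of its 3 elements fall inside that locus. Within 250 bases of the start, 4 of the 10 genes held the element, against 2.36% of all genes.

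The promoters of PRR9 and PRR7 are printed because these genes were called lower in atd14-1 in the test described below, so their motifs are no evidence on that fall. Their 250 upstream bases are given with capitals for every match to the 4 motifs searched, which are the evening element, the CCA1-binding site AAAAATCT, the LUX-binding site in the forms GATACG and GATTCG, and the G-box CACGTG. PRR9 lies at chr2:19232357-19232606 (plus strand) and PRR7 at chr5:642031-642280 (minus strand).
PRR9: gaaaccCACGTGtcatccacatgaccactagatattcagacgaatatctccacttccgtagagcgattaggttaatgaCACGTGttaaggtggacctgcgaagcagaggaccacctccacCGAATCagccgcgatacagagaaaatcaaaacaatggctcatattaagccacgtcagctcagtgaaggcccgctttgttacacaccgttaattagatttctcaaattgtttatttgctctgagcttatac
PRR7: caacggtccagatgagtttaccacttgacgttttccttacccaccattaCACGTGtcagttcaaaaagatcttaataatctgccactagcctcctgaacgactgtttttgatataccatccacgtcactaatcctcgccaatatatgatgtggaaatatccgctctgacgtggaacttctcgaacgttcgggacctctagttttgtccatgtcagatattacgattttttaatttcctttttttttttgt

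PRR9 showed 2 G-boxes and 1 LUX-binding site, CGAATC, on the opposite strand, and PRR7 showed 1 G-box. G-boxes were found within 250 bases in 4 of the 10 genes (PRR9, PRR7, LUX and BOA) and in 6.49% of all genes. These 4 genes did not share a direction in atd14-1 against Col-0, where PRR9 and PRR7 fell and LUX and BOA, which did not pass, had log2 fold changes of 0.13 and 0.37. Over 1000 bases a G-box was found in the same number of the 10 genes and in 14.8% of all genes. The LUX-binding site was present over 1000 bases in 8 of the 10 genes, all but PRR5 and BOA, and in 39.8% of all genes. The CCA1-binding site was present in 3 of them and in 21.1% of all genes. A match is a string in this window and was not measured as a bound site.

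**Figure D1:**
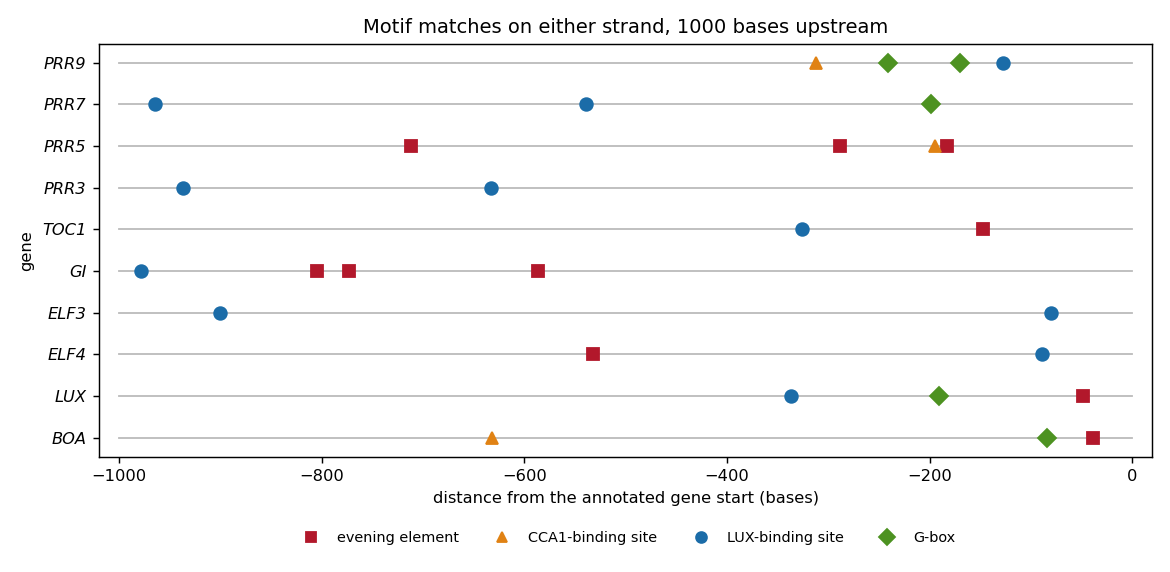
Matches to 4 motifs on either strand in the 1000 bases upstream of the annotated start of each of the 10 clock genes, with distance from the start in bases on the x axis and 1 gene per line. Evening elements (squares) appear in 6 genes and are absent from the lines of PRR9, PRR7, PRR3 and ELF3.

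Library totals ranged from 37724263 to 54421069 counts. The 10 genes had between 295 and 7763 counts in a library, far above a floor of 3 counts, and all of them passed the filter that left 21425 genes to test. D14 was at 6.48, 6.81 and 6.92 CPM in the atd14-1 libraries and between 43.4 and 45.3 CPM in the other 6. The locus taken as AtCXE15 (AT5G06570, for which the annotation holds no such symbol) was at 739 to 964 CPM in AtCXE15-OE and 2.95 to 4.12 CPM elsewhere. Its row in the table overlaps 1346 others, so that its count may include other genes. All 6 shoot and all 8 root markers were detected in every library. No shoot or root marker passed edgeR's test in AtCXE15-OE against Col-0, where 3 shoot and 0 root markers had an unadjusted p under 0.05 and DESeq2 called 1 shoot marker. In atd14-1 the light-harvesting genes LHCB2.1 and LHCB3 were lower (log2 fold changes -0.83 and -0.67) and AS1 higher (0.29). No root marker was called there by edgeR or DESeq2, and 0 had an unadjusted p under 0.05. Between the lines 3 of the 6 shoot markers were lower in atd14-1 than in AtCXE15-OE (LHCB2.1 at -0.57, LHCB3 at -0.50 and SPCH at -0.50), beside 4.12% of all genes. None of the 8 root markers passed edgeR's test in that comparison, where 2 were higher at an unadjusted p under 0.05 and DESeq2 called 1 higher. The summed root markers were at 124 to 141 CPM in Col-0, 118 to 148 in AtCXE15-OE and 137 to 146 in atd14-1, and the summed shoot markers at 8556 to 9133, 5529 to 9116 and 6463 to 9978. The shoot sums include RBCS1A, which varied widely within both lines. It was at 4837, 1603 and 4313 CPM in AtCXE15-OE and 7106, 3604 and 4034 CPM in atd14-1. The part of organ composition in the results below was not tested, and in bulk tissue fewer cells of a type and less RNA per cell cannot be told apart.

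Levels below are CPM scaled by edgeR's TMM factors, given for replicates 1, 2 and 3 in that order, and the adjusted p is edgeR's with a threshold of 0.05. Per kilobase of the deposited gene length, the 10 genes covered a wide range in Col-0. The SD below covers neither errors in these lengths nor reads assigned to overlapping loci, which ELF3, ELF4, LUX and BOA have. PRR7 (39.5 ± 0.840 CPM per kb, SD, n = 3), ELF4 (39.1 ± 1.92) and TOC1 (36.3 ± 1.92) stood at the top, and the values of PRR7 and ELF4 overlapped. GI (21.5 ± 1.32), ELF3 (19.2 ± 2.50) and LUX (18.9 ± 0.426) formed a middle group in which neighbours overlapped. PRR5 (13.9 ± 1.88), PRR3 (9.57 ± 0.690), PRR9 (6.48 ± 0.369) and BOA (5.06 ± 0.417) followed without overlap between neighbours. In AtCXE15-OE the leading 3 were ELF4 (45.8 ± 3.67), TOC1 (44.3 ± 0.872) and PRR7 (43.3 ± 5.11), with overlapping values. In atd14-1 the same 3 no longer overlapped, with ELF4 at 50.2 ± 1.84, TOC1 at 41.8 ± 1.72 and PRR7 at 30.1 ± 0.842, and PRR9 (4.01 ± 0.304) had fallen below BOA (6.55 ± 0.777) to the last place.

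**Figure D2:**
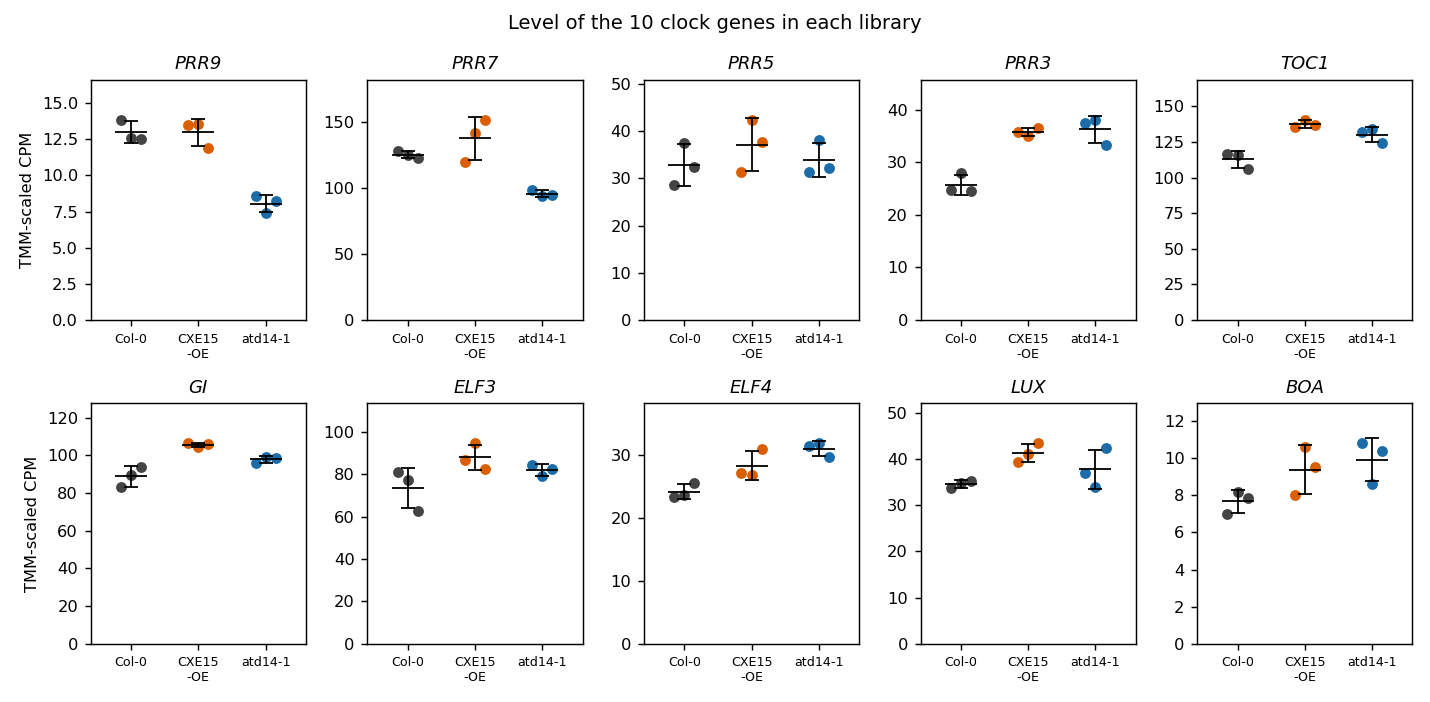
TMM-scaled CPM of the 10 clock genes in each of the 9 libraries (dots), with the group mean (horizontal bar) and SD (error bar, n = 3); each panel has its own axis from 0. PRR9 and PRR7 are lowest in atd14-1, and all PRR3 and TOC1 values of both lines lie above those of Col-0.

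The first comparison asked how the clock genes of seedlings that overexpress the carboxylesterase differ from those of Col-0. PRR3, TOC1 and GI rose, with log2 fold changes of 0.48, 0.29 and 0.25, and none of the 10 genes fell by edgeR, by DESeq2 or at an unadjusted p under 0.05. The other evening genes had values of a similar size that did not pass. Of the 10 genes 3 were thus called, all higher, where 0.761% of all genes tested were called higher, 1.51% lower and 2.27% in either direction. The median log2 fold change of the 10 was 0.25, with 9 above 0, beside 0.004 for all genes tested. The 3 AtCXE15-OE libraries lay wholly above those of Col-0 in 6 of the 10 genes and wholly below in none. Over all genes this was so for 8.93% in each direction and 17.9% in all. The genes and the lists below were chosen with earlier results of these data known, so such shares are a description and no test.

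PRR3, whose product protects TOC1 from degradation, had 24.7, 27.9 and 24.6 CPM in Col-0, and the AtCXE15-OE libraries were at 35.7, 35.1 and 36.6 CPM. The groups did not overlap, and the lowest AtCXE15-OE library stood well above the highest of Col-0. The log2 fold change was 0.48 ± 0.07 (SE, adjusted p = 0.00307). TOC1, the evening repressor of CCA1 and LHY, gave 116, 116 and 106 CPM in the wild type, beside 135, 141 and 137 CPM in AtCXE15-OE. Here too every transgenic library was above every control, with Col-0 replicate 3 the lowest (log2 fold change 0.29 ± 0.05, adjusted p = 0.00909). GI, which links the clock to flowering, was measured at 83.1, 89.5 and 94.0 CPM in the wild type and reached 106, 104 and 106 CPM in the transgenic line. The transgenic libraries were close together while those of Col-0 were spread, and the groups did not overlap (0.25 ± 0.05, adjusted p = 0.0201). The GI call was lost without Col-0 replicate 1 (adjusted p = 0.102), Col-0 replicate 2 (0.0719), AtCXE15-OE replicate 2 (0.0566) or AtCXE15-OE replicate 3 (0.0747), and with only the 6 libraries compared in the fit (0.0678).

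The evening complex genes did not pass the test in AtCXE15-OE. ELF3, the scaffold of the complex, had wild-type values of 80.9, 77.3 and 62.8 CPM and transgenic values of 86.9, 94.6 and 82.8 CPM. Col-0 replicate 3 was the lowest of all 9 libraries, and the groups did not overlap (log2 fold change 0.26, 95% interval 0.07 to 0.44, adjusted p = 0.187). LUX, the DNA-binding member, gave 33.8, 34.9 and 35.3 CPM in the wild type against 39.5, 41.2 and 43.4 CPM, without overlap (0.26, 0.09 to 0.42, adjusted p = 0.134). ELF4, a small protein that binds ELF3, went from 23.3, 23.7 and 25.6 CPM in the wild type to 27.2, 26.9 and 31.0 CPM, again without overlap (0.23, 0.07 to 0.39, adjusted p = 0.168). BOA overlapped between the groups, at 6.97, 8.18 and 7.88 CPM against 8.02, 10.6 and 9.52 CPM (0.29, 0.01 to 0.58, adjusted p = 0.377). The 4 fold changes were thus all above 0, and each interval included the 0.29 of TOC1.

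The earlier PRR genes gave no call in this comparison. PRR9, the morning member, had 13.8, 12.6 and 12.5 CPM in the wild type and 13.5, 13.6 and 11.9 CPM in the transgenic line. The groups overlapped throughout, and the 95% interval of the log2 fold change ran from -0.22 to 0.22. PRR7 gave 128, 125 and 123 CPM in the wild type, against 119.7, 141 and 152 CPM. Replicate 1 of the transgenic line lay below every Col-0 library and the other two above, and PRR7 was called higher when that library was left out (log2 fold change 0.23, adjusted p = 0.026, against 0.14 and 0.456 with it). PRR5, at 28.6, 37.4 and 32.3 CPM against 31.2, 42.4 and 37.6 CPM, had the widest spread of the 10 genes within both groups relative to its mean (13.5% and 15.1%) and overlapped (0.18, interval -0.12 to 0.47).

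The second comparison set the mutant of the receptor gene against the same 3 Col-0 libraries. The PRR genes moved in opposite directions. PRR9 and PRR7 fell, with levels 1.61-fold and 1.31-fold lower, whereas PRR3, ELF4 and TOC1 rose, by 1.41-fold, 1.28-fold and 1.15-fold. Of the 10 genes 5 were called, beside 11.9% of all genes tested, with 3 higher (5.06% of all genes) and 2 lower (6.87%). When scaled by library size alone, 5 of the 10 were called higher and 2 lower, beside 10.5% and 4.52% of all genes under that scaling. The median log2 fold change was 0.15 with 8 above 0, beside 0.006 over all genes. Groups did not overlap in 7 of the 10 genes, 5 higher and 2 lower, beside 31.5% of all genes (15.7% higher and 15.8% lower).

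PRR9 was at 8.58, 7.38 and 8.20 CPM in atd14-1, beside 13.8, 12.6 and 12.5 CPM in Col-0. All mutant values lay below the lowest of the other 6 libraries, 11.9 CPM. The log2 fold change was -0.69 ± 0.10 (adjusted p = 0.000506). PRR7, the next of the wave, fell from 128, 125 and 123 CPM to 98.5, 93.6 and 94.3 CPM. The mutant libraries were close together and well apart from the controls (-0.39 ± 0.07, adjusted p = 0.00203). PRR5, the third of the wave, was at 31.3, 38.1 and 32.2 CPM in atd14-1 and overlapped Col-0 almost completely (0.05, interval -0.25 to 0.34, adjusted p = 0.887).

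PRR3 was at 37.5, 38.1 and 33.3 CPM in atd14-1, above the 24.6 to 27.9 CPM of Col-0 (log2 fold change 0.50 ± 0.07, adjusted p = 0.000488). The groups did not overlap, and the size of the rise was close to that seen in AtCXE15-OE. Both rises are measured from the same Col-0 libraries and so are not independent. TOC1 was at 132, 134 and 124 CPM in atd14-1, also wholly above Col-0 (0.21 ± 0.05, adjusted p = 0.0205). The TOC1 call was lost without Col-0 replicate 3 (adjusted p = 0.0913), atd14-1 replicate 1 (0.0754) or atd14-1 replicate 2 (0.0978). Among the evening complex genes, ELF4 was at 31.6, 31.9 and 29.8 CPM in atd14-1, above the 23.3 to 25.6 CPM of Col-0 (0.36 ± 0.08, adjusted p = 0.00577). Its partners did not pass: ELF3 was at 84.4, 79.1 and 82.6 CPM (0.15, interval -0.03 to 0.34) and LUX at 37.0, 34.0 and 42.4 CPM (0.13, interval -0.04 to 0.29). Both overlapped Col-0, LUX through the second mutant library alone, which fell below 2 controls. BOA was at 10.8, 8.59 and 10.4 CPM, wholly above Col-0 (0.37, interval 0.08 to 0.66, adjusted p = 0.0945), and GI at 95.7, 99.2 and 98.4 CPM, also wholly above (0.14, interval 0.03 to 0.25, adjusted p = 0.105). With library size as the only scaling both passed, at 0.45 and 0.22 (adjusted p = 0.0387 and 0.0105).

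**Figure D3:**
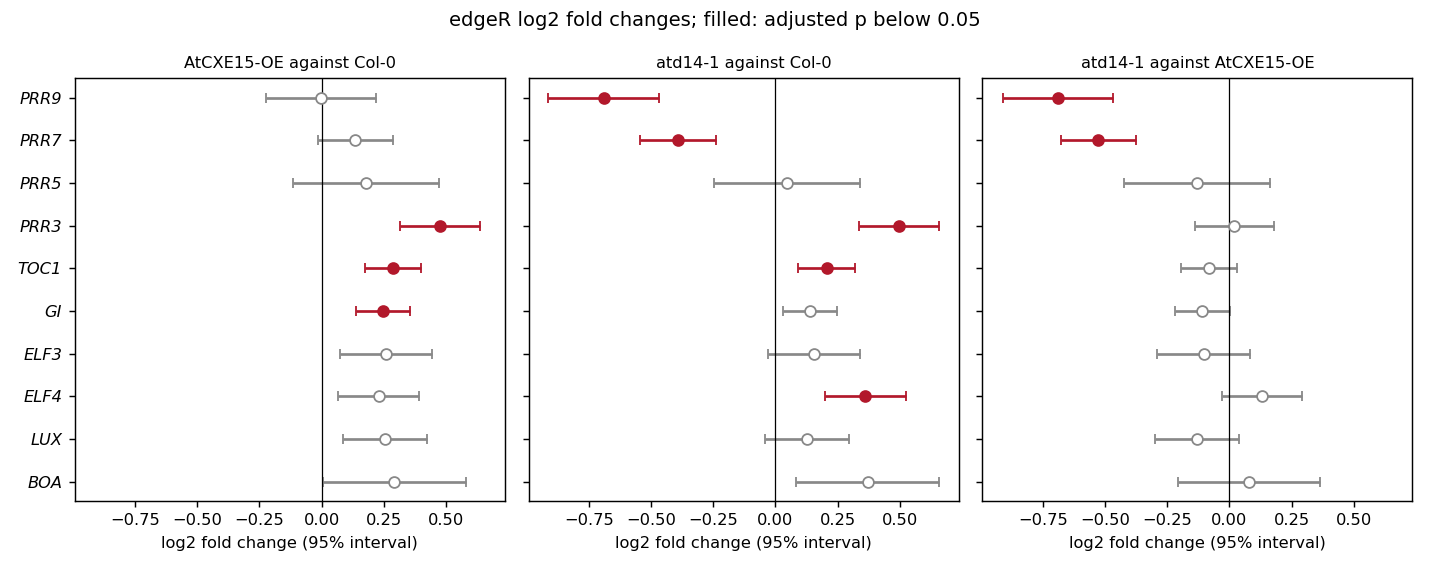
edgeR log2 fold changes of the 10 clock genes with 95% intervals in the 3 comparisons (x axis, log2 scale); filled red points passed an adjusted p of 0.05 and open grey points did not. PRR3 and TOC1 are filled and above 0 in both lines, whereas PRR9 and PRR7 are filled and below 0 wherever atd14-1 is compared. Both lines are compared with the same Col-0 libraries.

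The third comparison set atd14-1 directly against AtCXE15-OE and so tests whether the lines differ. Only PRR9 and PRR7 were called, both lower in the mutant, by log2 fold changes of -0.69 ± 0.10 and -0.53 ± 0.07 (adjusted p = 0.00137 and 0.000604). The shoot markers LHCB2.1, LHCB3 and SPCH were also lower in this comparison. The other shoot markers did not pass, with RBCS1A at 0.46, AS1 at 0.08 and GLK1 at -0.10. The part of organ composition in the result was not tested. The 2 clock genes are 2 of 10, where 4.12% of all genes were called lower, 2.82% higher and 6.94% in either direction. None was higher by edgeR, by DESeq2 or at an unadjusted p under 0.05. Groups did not overlap in 4 of the 10 genes, all lower in atd14-1, beside 26.0% of all genes (12.3% higher and 13.7% lower). Neither PRR9 nor PRR7 overlapped between the lines, with the highest mutant value of PRR7 at 98.5 CPM and the lowest of AtCXE15-OE at 119.7 CPM. PRR3 gave a difference of 0.02 between the lines (95% interval -0.14 to 0.18), ELF4 one of 0.13 (-0.03 to 0.29), GI one of -0.11 (-0.22 to 0.001) and TOC1 one of -0.08 (-0.20 to 0.03). TOC1 and GI were each lower in all 3 mutant libraries than in any AtCXE15-OE library without passing the test. The intervals of PRR5, ELF3, LUX and BOA also included 0.

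Ratios within a library do not depend on its scaling. The log2 ratio of PRR9 to TOC1, per kilobase, was -2.44, -2.57 and -2.45 in the wild type, -2.70, -2.74 and -2.90 in the transgenic line and -3.31, -3.55 and -3.29 in the mutant. The 3 groups were fully separated, with AtCXE15-OE between the others. Between Col-0 and AtCXE15-OE the step reflects TOC1 (log2 fold change 0.29), as PRR9 was at -0.002. The ratio restates the values of genes tested above and is no separate evidence. For PRR7 to TOC1 the ratios were 0.11, 0.08 and 0.18 in the wild type, -0.20, -0.02 and 0.11 in the transgenic line and -0.45, -0.55 and -0.43 in the mutant. Here AtCXE15-OE overlapped Col-0 through its replicate 3, while the mutant stood apart from both. The ratio of GI to TOC1 overlapped in all groups (means of -0.76, -0.80 and -0.82). ELF4 to LUX was at 1.34, 1.48 and 1.06 in atd14-1, where the third library fell within the 1.01 to 1.10 of Col-0.

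**Figure D4:**
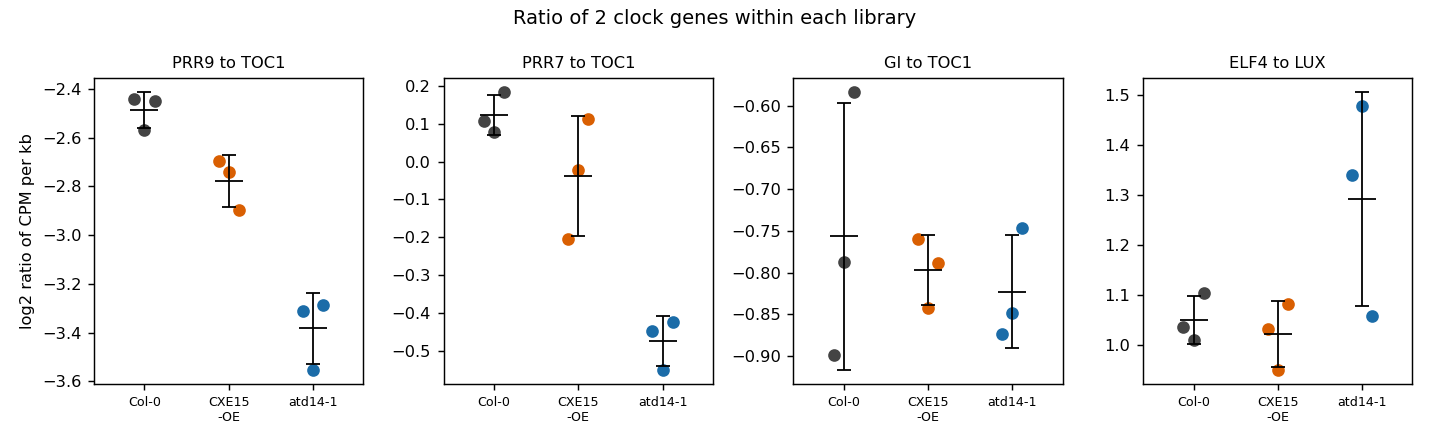
Log2 ratio of CPM per kb of 2 clock genes within each library (dots), with group mean and SD (n = 3); each panel has its own axis. The PRR9 to TOC1 ratio steps down from Col-0 (mean -2.49) through AtCXE15-OE (-2.78) to atd14-1 (-3.38) without overlap. PRR9 itself was not called in AtCXE15-OE against Col-0, where TOC1 was higher.

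The morning clock list holds repressors of evening genes (CCA1 and LHY) as well as activators of them (RVE8, RVE4 and their coactivators). RVE6, though in the deposited table, was left out because the annotation holds no such symbol for its ID, which leaves 9 of 10 listed genes. Of these 9, 5 fell in AtCXE15-OE, beside 1.51% of all genes tested, and 4 did not pass, with a median log2 fold change of -0.31. For all 9, every AtCXE15-OE library lay below every Col-0 library, beside 8.93% of all genes. All 9 also had an unadjusted edgeR p under 0.05. In atd14-1 all 9 fell, beside 6.87% of all genes, with a median of -0.75. CCA1 was at 101, 95.1 and 95.5 CPM in the wild type, 68.9, 82.0 and 76.7 CPM in the transgenic line and 58.1, 57.3 and 58.5 CPM in the mutant, so that the groups formed 3 separate steps (log2 fold changes against Col-0 of -0.36 ± 0.06 and -0.75 ± 0.06, adjusted p = 0.00559 and 3.17e-06). LHY stepped down in the same order, at -0.54 ± 0.09 and -0.80 ± 0.09. RVE8 and RVE4, MYB factors that activate evening genes, were at -0.23 and -0.31 in AtCXE15-OE, where only RVE4 passed, and both fell in atd14-1 (-0.53 and -0.53).

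LNK1 and LNK2, coactivators of the RVE factors at the PRR5 and TOC1 promoters, did not pass in AtCXE15-OE (-0.13 and -0.19) and fell in atd14-1 (-0.45 and -0.99). LNK3 and LNK4 fell in both lines (-0.37 and -0.49, then -0.91 and -0.99). RVE1, which acts on auxin levels, was at -0.15 in AtCXE15-OE without passing and fell in atd14-1 (-0.72). In the direct comparison 8 of the 9 were lower in atd14-1 than in AtCXE15-OE, beside 4.12% of all genes, LHY being the exception (-0.26, adjusted p = 0.129). PRR9 and PRR7 thus fell in the mutant as the morning genes did, while PRR3 and TOC1 rose and PRR5 did not pass.

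**Figure D5:**
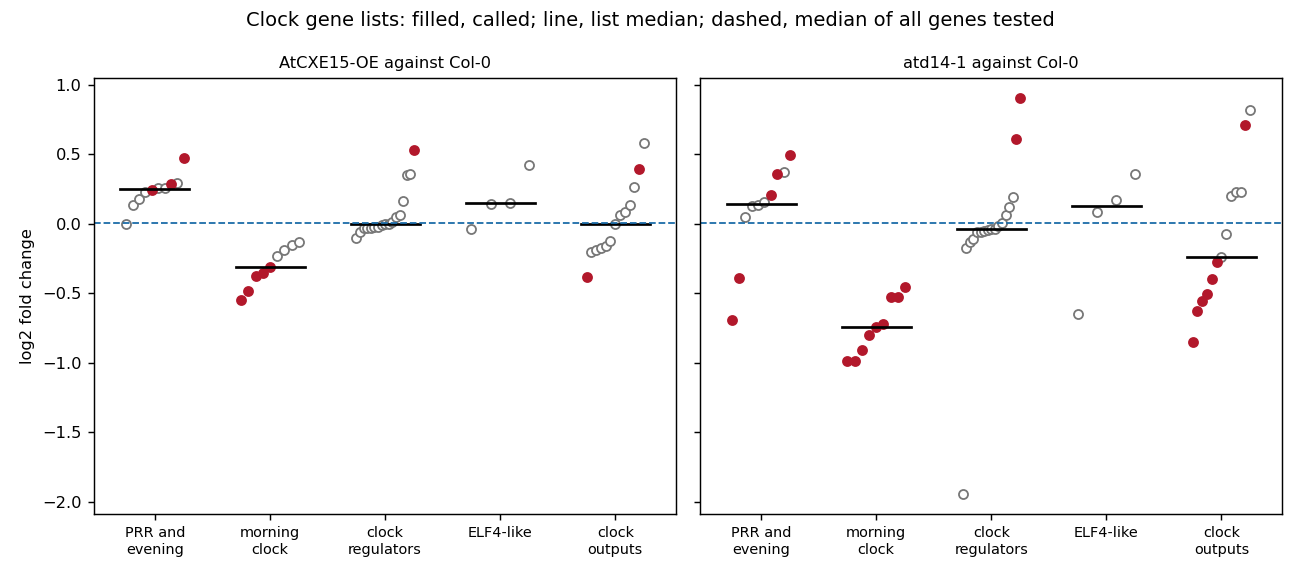
Log2 fold changes of each gene (dots; filled, adjusted p below 0.05) in 5 clock gene lists for each line against Col-0, with the list median (black line) and the median of all genes tested (dashed line). The morning list lies wholly below 0 in both panels, with medians of -0.31 and -0.75, opposite to most PRR and evening genes.

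Among 17 regulators that act on the clock genes, 1 rose in AtCXE15-OE and 2 in atd14-1, beside 0.761% and 5.06% of all genes, and none fell by edgeR, beside 1.51% and 6.87%. The counts in atd14-1 are near those shares. At an unadjusted p under 0.05, 0 were lower in AtCXE15-OE and 1 in atd14-1, and DESeq2 called 0 and 1 lower. JMJD5, a histone demethylase gene expressed in the evening, was at 33.8, 33.3 and 37.6 CPM in the wild type, 48.1, 52.0 and 51.0 CPM in the transgenic line and 63.3, 64.7 and 67.9 CPM in the mutant. It rose in both lines and further in the mutant (log2 fold changes 0.53 and 0.90, adjusted p = 0.000491 and 1.05e-06, and 0.37 between the lines, adjusted p = 0.0032). FKF1, an evening F-box gene whose product works with GI, was at 0.36 in AtCXE15-OE (adjusted p = 0.0504) and rose in atd14-1 (0.61, adjusted p = 0.00035). ZTL, the F-box gene whose product degrades TOC1 and PRR5, was at -0.06 and -0.05 in the lines (95% intervals -0.18 to 0.07 in both). Of the 4 ELF4-like genes none passed edgeR's or DESeq2's test in any comparison, and 1 had an unadjusted edgeR p under 0.05 in each.

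Of 13 clock outputs, 1 rose and 1 fell in AtCXE15-OE, beside 0.761% and 1.51% of all genes. In atd14-1 1 rose and 6 fell, beside 5.06% and 6.87%, so that the count of those that rose is near the share of all genes. GRP7, an evening RNA-binding protein gene, rose in both (log2 fold changes 0.39 and 0.71, adjusted p = 0.00891 and 2.01e-05). CDF1, a morning repressor of CONSTANS and a target of the PRR proteins, fell in both (-0.38 and -0.56, adjusted p = 0.0162 and 0.000236). PIF5, a growth factor gene repressed by the evening complex, fell in atd14-1 (-0.50, adjusted p = 1.85e-05) and was at -0.19 in AtCXE15-OE (adjusted p = 0.0739). COL2, a CONSTANS-like gene, fell in atd14-1 by 0.85 on the log2 scale (adjusted p = 7.42e-07). In the direct comparison 4 of the 13 outputs were lower in the mutant (COL2, EPR1, PIF5 and PIF4), beside 4.12% of all genes, and 1 was higher (GRP7), beside 2.82%.

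Finally, 7609 genes that had a symbol and averaged at least 5 CPM were ranked by how closely their centred log2 CPM followed each of the 10 genes over the 9 libraries, measured as a root-mean-square difference. For PRR9 the nearest were BZO2H3 (0.06 log2 units), PKS4 and ARF8, against a spread of PRR9 itself of 0.32. For PRR7 they were DTA2 (0.05), NUDX13 and CER2, and for PRR3 GER3 (0.09), BRXL4 and SBE2.1. TOC1 was followed most closely by BGLU44 (0.04), DPE1 and PLA2-ALPHA, and PRR5 by UNE2 (0.06), DER2.2 and LACS3. GI was followed by SEC1B (0.03), FLK and TEJ, the last of which encodes a poly(ADP-ribose) glycohydrolase known to set clock period. The nearest to ELF3 were HTA12 (0.05), PRP40B and OPT1, to ELF4 SAH7 (0.05), APR3 and CDS1, to LUX AAP7 (0.05), NAC014 and SIS3, and to BOA PAP12 (0.07), BBX8 and MYB43. The spread of every other clock gene was smaller than that of PRR9, from 0.11 for GI to 0.24 for PRR3. A difference of 0.05, as for TEJ, is thus a larger part of the spread of GI. None of the 10 clock genes was among the 3 nearest of another. With 3 kept from 7609, that is no evidence on whether the clock genes vary together.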

How the data were processed

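Whole-seedling RNA was profiled in 9 libraries, 3 per group, grouped by their titles. The deposited values are raw counts per gene, per the file headers, with no normalization. The submitters' processing notes name TAIR10 as build and, as tools, DESeq 1.39.0, SAMtools 0.1.18, Picard and HISAT2. No source used here states how reads were counted, with which strand setting or how multi-mapping reads were treated, and per the labels' protocols the library procedure does not mark strand. Of the 10 genes, 6 overlap no other row of the table. ELF3 and BOA each overlap 1 other row, LUX 3, and ELF4 6 that all span over 100 kb, so that reads of these genes may have been assigned elsewhere.

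Of 27366 locus IDs, 26694 matched the RefSeq annotation of TAIR10.1, the source of symbols, gene starts and sequences. Its nuclear chromosomes are long enough for every coordinate in the table. Genes were tested in R 4.3.3 with edgeR 4.0.16 (quasi-likelihood test, robust dispersions, TMM, filterByExpr) in 1 fit of all 9 libraries with group means only, with Benjamini-Hochberg adjustment over 21425 genes and a threshold of 0.05. The SE is the absolute log2 fold change divided by the square root of F, and intervals use it with the test's degrees of freedom. The nearest-pattern ranking used log2(CPM + 0.5). Intervals and floors cover counting error and the spread between these libraries. The procedure was tested on simulated data with fold changes larger than most of those called among the 10 genes. Recovery of such smaller changes was therefore not tested. DESeq2 1.42.0, other scalings, no filter, the 2 groups alone, a replicate block and leaving out each library were alternatives. Libraries of a group differed by more than sampling noise in every pair (lowest chi-square per degree of freedom 22.9), so all were kept. The members and lists were chosen with earlier results of these data known. All 10 genes and the morning list are named, with up to 4 called genes of every other list and comparison by smallest p, and the 3 nearest patterns per gene. ZTL, FKF1 and PIF5 in AtCXE15-OE, SKIP and the marker genes were named after their values were seen. From 71 listed genes, 2 (RVE6 and CDF5) were left out because the annotation holds no such symbol for their IDs, although both were in the deposited table. The locus taken as AtCXE15 was kept despite the same mismatch.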

Additional observations from a re-analysis of the deposited data

How the results depend on the processing

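Each log2 fold change of the 10 genes was recomputed under 12 alternatives. PRR9 and PRR7 in atd14-1, against either group, PRR3 in both lines, ELF4 in atd14-1 and TOC1 in AtCXE15-OE stayed called in all 12, with the widest ranges for PRR9 (-0.74 to -0.62 against Col-0) and PRR7 (-0.62 to -0.45 against AtCXE15-OE). Over all alternatives the GI call in AtCXE15-OE had adjusted p of 0.00204 to 0.102, and the TOC1 call in atd14-1 of 0.00398 to 0.0978. Leaving out 1 library gave 2 to 4 of the 10 called in AtCXE15-OE, 4 to 5 in atd14-1 and 2 in the direct comparison. The sign turned only for values near 0, none of them called. PRR9 in AtCXE15-OE was at 0.021 when scaled by library size alone, and from -0.036 to 0.057 with 1 library left out, above 0 without AtCXE15-OE replicate 3 or Col-0 replicate 1. PRR5 in atd14-1 ranged from -0.047 to 0.152 with 1 library left out, below 0 without atd14-1 replicate 2 or Col-0 replicate 1. In the direct comparison PRR3 ranged from -0.017 to 0.078, below 0 without atd14-1 replicate 1 or 2, and BOA from -0.022 to 0.176, below 0 without AtCXE15-OE replicate 1.

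Over all genes, 487 were called in AtCXE15-OE, 821 with DESeq2 and 287 to 586 with 1 library left out (lowest without AtCXE15-OE replicate 3, then 306 without Col-0 replicate 1 and 313 without Col-0 replicate 2). In the direct comparison 1486 were called, and 769 to 2216 with 1 library left out (837 and 776 without AtCXE15-OE replicates 2 and 3, and 820, 769 and 913 without atd14-1 replicates 1 to 3). The morning list had 3 to 5 calls in AtCXE15-OE with 1 library left out, and 3 without AtCXE15-OE replicate 3. The regulator, ELF4-like and output lists together had 3 calls there, 6 with DESeq2 and 1 to 4 with 1 library left out, with 1 without Col-0 replicate 1 or 2. The cause was not tested. Library size as the only scaling turned the split of higher and lower calls from 163 and 324 to 220 and 274 in AtCXE15-OE, from 1084 and 1472 to 2241 and 968 in atd14-1, and from 604 and 882 to 1060 and 551 in the direct comparison, and moved the median of all genes by at most 0.08. Over all genes tested, replicate numbers did not pair the libraries (correlations of deviations of -0.05 to 0.05). A fit with the replicate block called 3, 5 and 2 of the 10 genes in the 3 comparisons, as without it. PRR5 ranked its replicates in the same order in every group. Its edgeR adjusted p in AtCXE15-OE against Col-0 was 0.257 with the block and 0.651 without. Precision differed among the 10 genes: BOA, at 295 to 576 counts a library, had an SE of 0.13 in atd14-1 against Col-0, and TOC1, at 4447 to 7617 counts, one of 0.05.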
